A study of Caenorhabditis elegans with 3 samples.

Results

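The C-type lectin genes are the genes whose symbol begins with clec-, and they were taken from every row of the F11 and F14' peak tables that names such a gene. They numbered 17 genes in all, with 2 in the F11 table and 16 in the F14' table, and clec-135 was the only gene in both. These genes were named for 2 of the 95 peaks of F11 and 19 of the 639 peaks of F14'. The peaks mark trimethylation of lysine 4 on histone H3 (H3K4me3), mapped by ChIP-seq, the sequencing of DNA pulled down with an antibody to the mark, in wild-type Caenorhabditis elegans nematodes. The control worms were kept on K-medium in nematode growth medium (NGM) plates. F11 worms received the sulfonamide antibiotic sulfomethoxazole (SMX) in K-medium for 11 consecutive generations of 6 days each, and F14' worms are their unexposed progeny on K-medium. The labels call F14' worms the first non-exposed progeny of F11 yet number them as generation 14. The generations between are not described. All groups were fed Escherichia coli OP50 at 20 °C, were wild type, and were collected as whole bodies, so cell types cannot be told apart. The sources used here do not give sex, stage or the generation of the control.

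With 1 library in each group, differences could not be checked against replicates, and no test across samples was made. Intervals are exact 95% intervals and cover counting error only. Both tables are labelled as set against the control, which has no table of its own and was not analysed by itself. No FDR was used for F14', and whether its peaks were called against the control with the settings used for F11 could not be checked. Numbers of peaks, folds and overlaps are therefore set side by side and not read as a change in the mark. Each table lists peaks, so a gene that is not listed has no value here and is not shown to lack the mark.

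C-type lectin-like domains are small disulfide-stabilised folds, and in many animals proteins that carry them bind sugars on cell surfaces, often with calcium. The nematode family is large, and many members are predicted to be secreted. In C. elegans several members are induced in the intestine when worms meet bacterial pathogens, and the family is commonly counted among innate immunity effectors. H3K4me3 is usually concentrated around the starts of transcribed genes. The roles of most of the genes described here have not been worked out one by one, so none is given for them. No sequences of these peaks or genes were used here.

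All 17 members were found in a RefSeq gene table with 264 C-type lectin genes, 239 of them protein-coding. In F14' 16 of the 264 genes had a listed peak (6.06%, 3.50 to 9.66%). The background over 46926 reference genes of all kinds was 1.77%. Among protein-coding genes the share was 14 of 239 (5.86%, 3.24 to 9.63%), against a background of 2.52%. Since C-type lectin genes lie mostly on chromosome arms, the background was also taken over protein-coding genes in the outer parts of gene order, outside the middle 33.3% of the genes of each chromosome. There it was 3.25%, and 13 of 209 C-type lectin genes were listed (6.22%, 3.35 to 10.4%). In F11 2 of 264 genes were listed (0.758%, 0.0919 to 2.71%), against 0.190% of all reference genes and 0.325% of protein-coding genes, so the interval held both backgrounds. The F14' share was above each of these backgrounds, by least against genes of the outer parts, where the lower bound of 3.35% lay close to 3.25%. With peaks of a score of at least 100 alone, 8 family genes remained (3.03%, 1.32 to 5.88%). The backgrounds at that limit were 0.690% of all reference genes, 0.911% of protein-coding genes and 1.10% of those in the outer parts. In the outer parts 6 of 209 lectin genes were listed at that limit (2.87%, 1.06 to 6.14%), an interval that holds its background. The 2 F11 genes were too few to place.

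In F11 the 2 peaks differed in strength and position. The peak of clec-135 (chromosome II, 4259748 to 4260945, ce10) was classed as promoter and was centred 1562 bp upstream of the start of the gene. It was 1198 bp wide and held 482 tags, or 402 tags per kb (367 to 440), with a deposited fold of 4.63 and a score of 234.86. The score is -10 times the base-10 logarithm of the p-value of the peak. This peak ranked 7 of 95 by fold and 24 by tags per kb. The peak of clec-70 (chromosome IV, 3929859 to 3931421) was classed as upstream and lay 2086 bp from the start, at 287 tags per kb (261 to 314). Its fold of 1.86 ranked 66 and its score of 32.53 ranked 90, close to the lowest score of the table, 30.21. The median over all F11 peaks was 314 tags per kb and a fold of 2.02. Both lectin peaks carried an FDR (the caller's estimate of false peaks) of 100% in the authors' deposited table, so neither would pass a usual limit. The clec-135 peak carried it although it ranked 11 of 95 by score. The share of all F11 peaks at that value was not counted, so it is not read as a trait of the lectin peaks. The F11 listing of the family therefore holds 1 peak in the upper part of the table and 1 near its lower edge.

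The clec-135 upstream region was the C-type lectin region listed in both tables. In F14' the peak ran from 4259521 to 4261084, contained the whole F11 peak and reached 227 bp and 139 bp beyond its ends. The F14' peak held 815 tags over 1564 bp, or 521 tags per kb (486 to 558), against 402 in F11. Its summit lay 31 bp from that of F11, where the median distance over all 54 overlapping pairs was 282 bp. The tags per kb of F14' were 1.30 times those of F11 (1.16 to 1.45), and this ratio ranked 6 among the 54 pairs, whose median was 1.03. The interval does not cover that median, but it leaves out the spread between libraries, and the sources used here do not give library totals. Without division by width the ratio of tags was 1.69, against a median of 1.19 over the pairs. The deposited folds were 4.63 and 5.76. Their ratio of 1.24 lay at the median of the pairs, also 1.24.

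**Figure D1:**
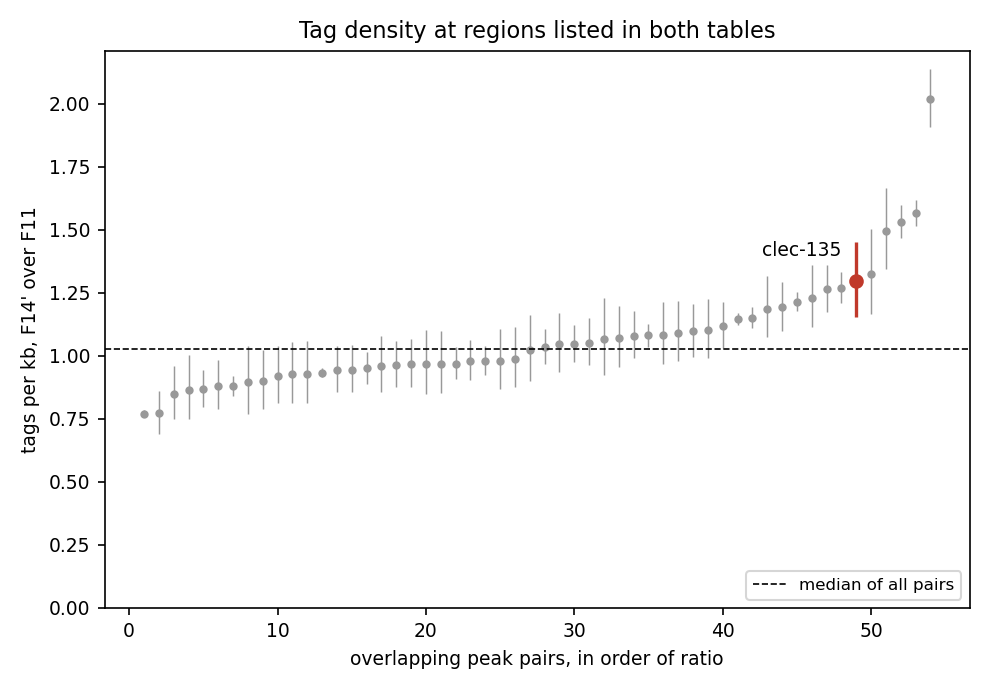
The plot shows the ratio of tags per kb, F14' over F11, for each of the 54 overlapping peak pairs in order of the ratio, with exact 95% intervals and the median as a dashed line. The clec-135 pair, in red, lies at 1.30, above the median of 1.03.

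Of the 95 F11 peaks 53 overlapped an F14' peak (55.8%), and of the 639 F14' peaks 54 overlapped an F11 peak (8.45%). Among C-type lectin peaks the counts were 1 of 2 and 1 of 19 (5.26%, 0.133 to 26.0%), both of which are clec-135. The clec-70 peak of F11 had no partner, and the nearest F14' peak lay 8736 bp away at another family member, clec-174. Of the remaining F14' lectin peaks, the upstream peak of clec-164 came nearest to an F11 peak, at 4872 bp.

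The densest C-type lectin peak in F14' belonged to clec-9 (chromosome V, 16706636 to 16709952). It was 3317 bp wide and held 20587 tags, or 6207 tags per kb (6122 to 6292), with a fold of 7.49 and a score of 3100. It ranked 8 of 639 by tags per kb and 53 by fold, and among the 384 promoter-class peaks it had the highest tag count and the highest tags per kb. The peak ended 11 bp short of the start of clec-9 and reached -3327 bp, with its summit at -2352 bp. It therefore covered none of the gene itself. The density of clec-9 is not set against background, since no background value was computed for this peak.

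Next in density was clec-175 (chromosome IV, 4415964 to 4424306), at 1501 tags per kb (1475 to 1527). This density is not set against background, which was high at this peak (1298 tags per kb, computed as described below). Its peak was 8343 bp wide, which ranked 3 of 639 by width, and held 12521 tags at a fold of 3.23. It was classed as upstream and reached from -6367 bp to 1975 bp of the start, with the summit at -4764 bp. Thus 23.7% of the peak lay inside the gene and covered 47.3% of it.

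The clec-223 peak (chromosome V, 11273258 to 11274984) held 1314 tags, or 761 tags per kb (720 to 803), with a fold of 5.49 and a score of 1818.91. It lay wholly inside the gene, 129 to 1855 bp after the start. For clec-50 (chromosome V, 19752768 to 19754304) the density was 434 tags per kb (402 to 468) and the fold 4.57, and this peak too lay wholly inside its gene, from 1002 to 2538 bp. The clec-122 peak (chromosome II, 3105896 to 3108142) held 373 tags per kb (349 to 400) at a fold of 2.81 and covered the whole gene. By counting error clec-9, clec-175, clec-223, clec-135, clec-50 and clec-122 can be placed in this order of raw tags per kb. The intervals of neighbours did not overlap.

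The other 13 lectin peaks of F14' lay between 233 and 314 tags per kb, and neighbours in their order had overlapping intervals. At the upper end were clec-174 (314), clec-120 (307), clec-261 (307) and clec-79 (304 tags per kb). In the middle were clec-164 (290), clec-163 (290), the upstream peak of clec-50 (286) and clec-7 (284). Lowest were the upstream peaks of clec-261 (275) and clec-164 (273), then clec-244 (272), clec-10 (271) and clec-107 (233, 211 to 257). The clec-107 peak (chromosome I, 13069695 to 13071463) had the lowest tags per kb of all 639 F14' peaks, at a fold of 1.70. Across the 19 peaks the median was 304 tags per kb, against 301 over all F14' peaks. By raw tags per kb, not set against background, the family thus held the densest promoter-class peak of the table and also the sparsest peak of any class.

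**Figure D2:**
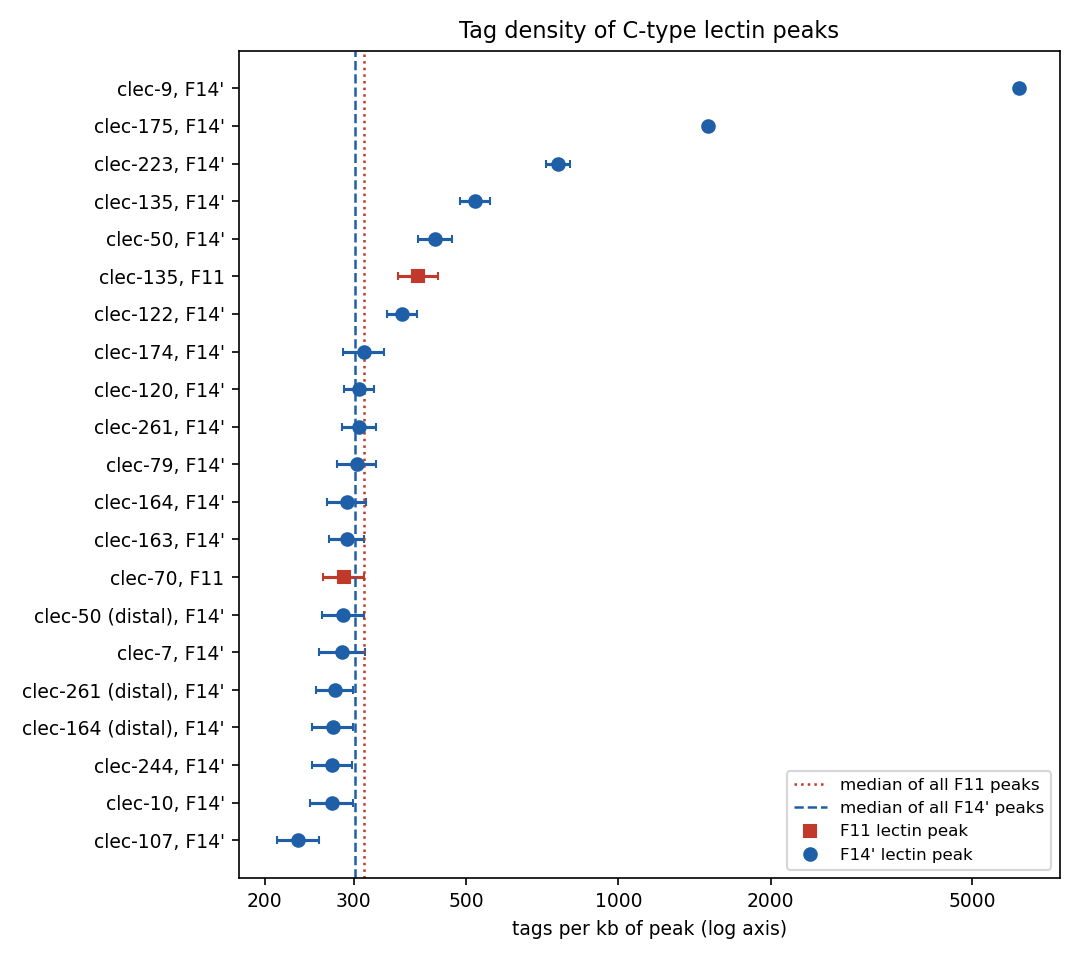
The plot shows tags per kb on a log axis for the 21 C-type lectin peaks of both tables, with exact 95% Poisson intervals, circles for F14' and squares for F11, and vertical lines at the medians of all peaks; distal marks second peaks over 5 kb upstream. The F14' peak of clec-9 lies at 6207 and that of clec-107 at 233, and most others lie near the median of 301.

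The deposited folds spanned a narrower range than the tags per kb, and their order differed in part. In F14' the lectin folds ran from 1.70 at clec-107 to 7.49 at clec-9, with a median of 2.36 against 2.30 over the table. Folds of at least 3 were found at 6 of the 19 lectin peaks (31.6%, 12.6 to 56.6%), where the background was 27.2%. These were the peaks of clec-9, clec-135 (5.76), clec-223, clec-50, clec-175 and clec-163 (3.10). By score 11 of the 19 lay above the table median of 64.1, and by tags per kb 10 did. In strength the lectin peaks were therefore close to F14' peaks in general.

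**Figure D3:**
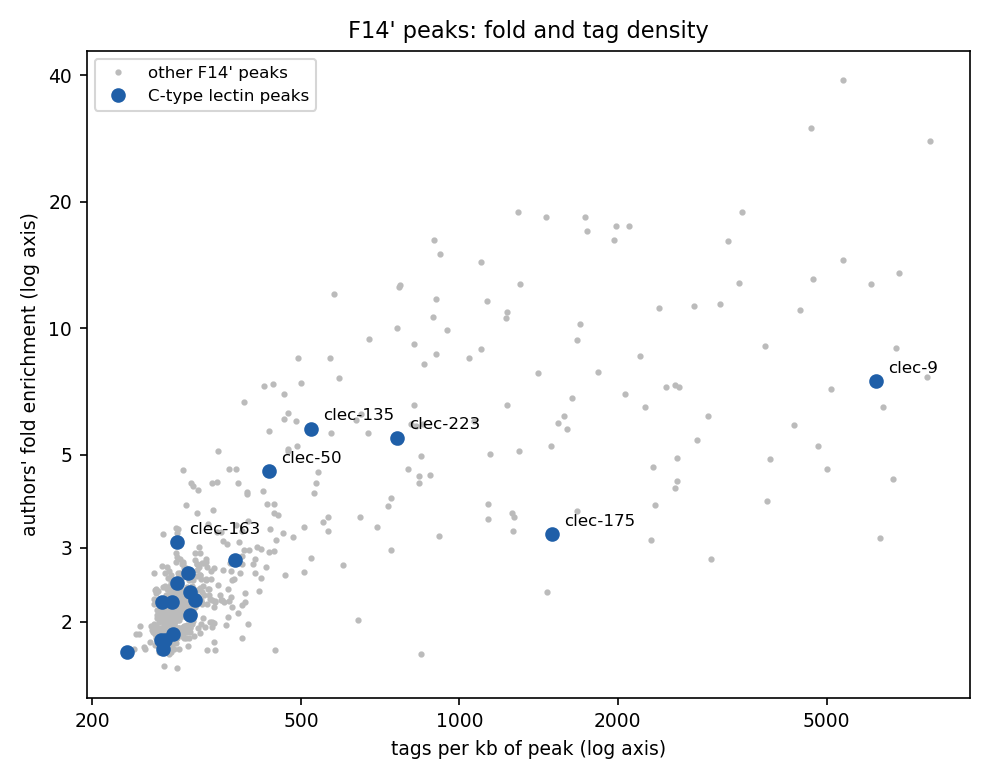
The plot shows the authors' fold against tags per kb for all 639 F14' peaks on log axes, with the 19 C-type lectin peaks in blue and those with a fold of at least 3 named. Most lectin peaks sit in the dense part of the cloud near the table median of 301 tags per kb, while clec-9 and clec-175 lie at high density with folds of 7.49 and 3.23.

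The background behind a peak was computed as the Poisson mean at which its tags have the deposited p, which is possible below the ceiling of the score. No value was computed for the clec-9 peak, with its score of 3100, so whether its high density stood on a high background is not known. In F14' the commonest value was 235.2 tags per kb, held within 0.1 by 203 of 570 peaks (35.6%) and by 8 of 18 lectin peaks, among them clec-163, clec-79, clec-174 and clec-7. Higher values stood behind 5 lectin peaks, from clec-122 (247) and clec-135 (253) to clec-223 (305) and clec-175 (1298 tags per kb). Lower values stood behind the other 5, down to clec-107 (197), the lowest in the table. Over the whole peak width, tags were 2.49 times this background at clec-223, 2.06 times at clec-135, 1.65 times at clec-50 and 1.16 times at clec-175. The value at clec-175 was the lowest of the 18, although its raw density was high. The median of the 18 was 1.23, as over all 570 peaks. In F11 both lectin peaks had the commonest background of that table, 245.1 tags per kb, and the ratio was 1.64 at clec-135 and 1.17 at clec-70.

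By the authors' classes 15 of the 19 F14' lectin peaks were promoter peaks (78.9%, 54.4 to 93.9%), where the background was 60.1%, a value inside the interval. The other 4 were upstream peaks, and none was classed as intergenic, intron or exon, classes that held 13.1%, 3.29% and 2.82% of all F14' peaks. The promoter class takes in peaks centred up to 2 kb on either side of a start, so a promoter peak can lie within a gene.

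Most promoter-class lectin peaks lay on the gene rather than before it. Of the 15, 12 were centred downstream of the start (80.0%, 51.9 to 95.7%), against a background of 58.1% over all 384 promoter-class peaks of F14'. Distances ran from 191 bp at clec-120 to 1770 bp at clec-50, and clec-9 (-1669 bp), clec-135 (-1518 bp) and clec-244 (-1013 bp) were the ones centred upstream. At 11 of the 15 at least 50% of the peak width was inside the gene (73.3%, 44.9 to 92.2%), against 37.0% of promoter-class peaks. The start itself lay under 5 of the 15 peaks (33.3%, 11.8 to 61.6%), namely those of clec-122, clec-164, clec-120, clec-10 and clec-107, against 57.8%.

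The same shares were also taken over genes of like length, a range set after seeing the values. The genes of the 15 peaks were 999 to 4922 bp long in the deposited annotation, with a median of 1567 bp. Over the 197 promoter-class peaks of genes in that range, the backgrounds were 63.5% centred downstream, 58.9% with at least 50% of their width inside the gene and 52.8% over the start. Each of these lies within the interval of the lectin share. Of the 9 lectin peaks centred within 1 kb of the start all were downstream (100%, 66.4 to 100%), where the share was 60.9% over such peaks of genes in that range. That limit was also chosen after seeing the values, and the part of gene length in these shares was not tested.

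Several lectin genes were nearly covered, as were other genes of the F14' table. The median covered share was 71.0% over the 15 promoter-class lectin peaks and 54.8% over all 384 promoter-class peaks. Over those of genes of like length it was 47.2%. The upper quartile over the 384 was 100%, so peaks that cover a whole gene were common among them. However, the lower quartile of gene length there was 423 bp, and the narrowest of these peaks was 970 bp wide. Short genes can thus be covered by peak size alone. How many peaks covered a whole gene was not counted over genes of like length. The peaks of clec-122, clec-164 and clec-120 contained the whole gene, and those of clec-174, clec-107, clec-10 and clec-7 covered 91.7%, 90.1%, 79.4% and 76.3% of it. At clec-163 and clec-79 71.0% and 69.5% of the gene lay under the peak. For the longer genes clec-50, clec-261 and clec-223 the covered share was 53.2%, 46.6% and 35.1%, although those peaks lay entirely within the gene. The summit was inside the gene at 11 of the 15 promoter-class lectin peaks, against 165 of all 384 such F14' peaks. This share was not taken over genes of like length. All 11 were among the 12 lectin peaks centred downstream. At the other, clec-163, the summit lay 2179 bp from the start of a gene of 2022 bp. The RefSeq table lists clec-120 and clec-244 as pseudogenes.

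**Figure D4:**
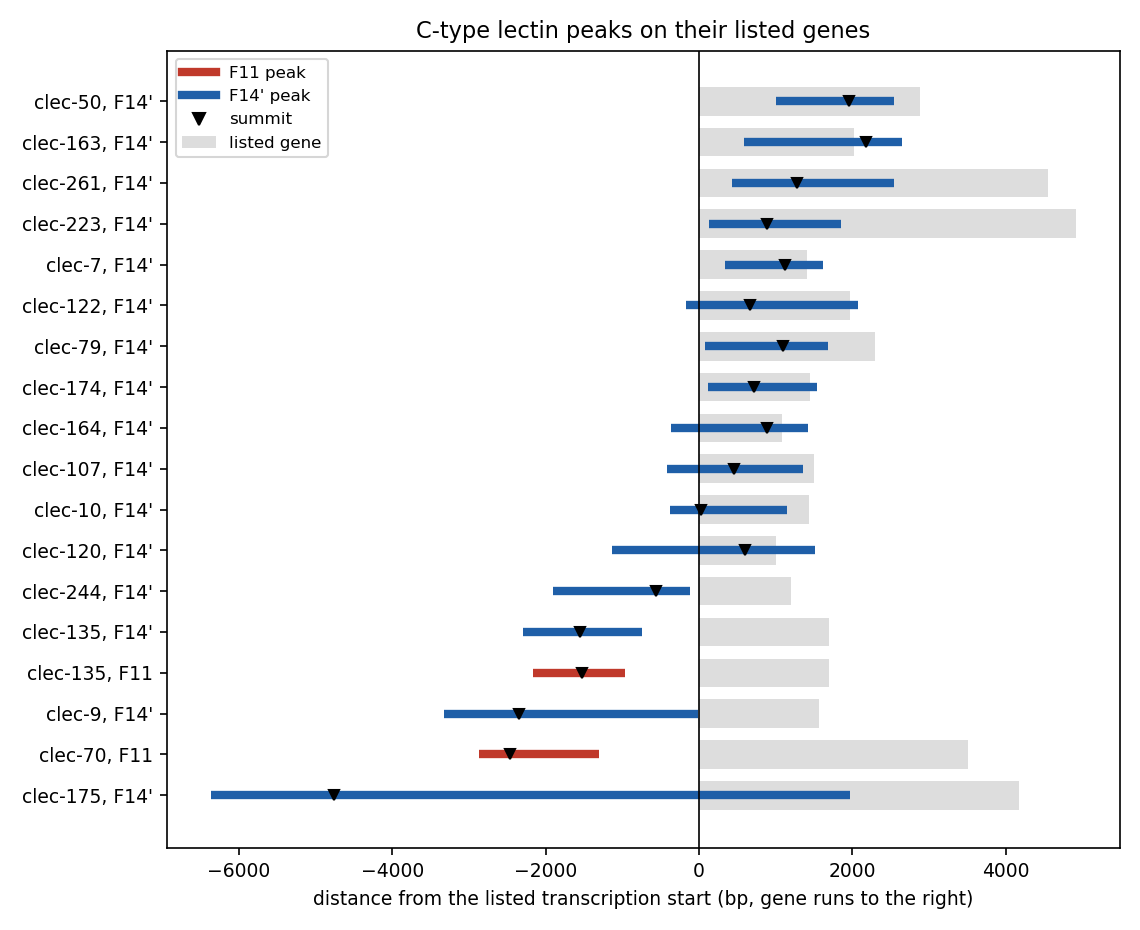
The plot shows 18 C-type lectin peaks as bars (blue F14', red F11) along the distance in bp from the start of the listed gene, with the gene as a grey bar and the summit as a triangle; the 3 peaks more than 5 kb upstream are left out. The peaks of clec-135, clec-9, clec-244 and clec-70 lie wholly before the gene, and 12 peaks are centred on the gene side of the start.

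Of the 16 F14' genes, 3 were named for a second peak far upstream. These lay at -10752 bp of clec-50 (chromosome V, 19765294 to 19766823), -6544 bp of clec-261 (chromosome V, 20300032 to 20301970) and -12249 bp of clec-164 (chromosome IV, 703533 to 705220). Their folds were low, at 1.87, 1.81 and 1.72, where the first peaks of these genes had folds of 4.57, 2.36 and 2.47. Genes outside the family were also named for second peaks in F14'. How often this occurred over all F14' genes was not counted, so second peaks are not read as particular to lectins. The upstream peak of clec-261 was also listed with ZC15.3, ZC15.1 and Y113G7C.1, and the start of ZC15.3 was nearer, at 2587 bp. For the upstream peak of clec-164 the nearest start named in either table was that of cutl-26. The other 17 of the 19 peaks had the lectin gene as the nearest named start. Only genes named in either table were searched, so an unlisted gene may start nearer to these peaks. With peaks centred within 2 kb of the start, 15 of the 16 genes remained, without clec-175.

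By chromosome, V held 8 of the 19 F14' lectin peaks (42.1%), against 24.7% of all F14' peaks. The family itself is frequent there, with 96 of its 264 genes, of which 6 were listed, out of 16 listed in F14'. The 8 peaks count clec-50 and clec-261 with 2 peaks each. Chromosome IV held 5 peaks at 4 of 58 genes and chromosome II 4 peaks at 4 of 51 genes. Chromosomes I and III held 1 peak each, at 1 of 38 and 1 of 18 genes, and X held none at 3 genes. Of the 19 peaks 17 lay outside the middle 33.3% of chromosome length (89.5%, 66.9 to 98.7%), where the background was 82.6%. The 2 in the middle were clec-7, at 35.2% of the length of chromosome V, and clec-223, at 54.1%. On chromosome II all 4 lay on the left side, between 2.66% and 28.2% of the length, at clec-10, clec-120, clec-122 and clec-135. Of all 118 F14' peaks of that chromosome 62 (52.5%) lay no further along it than the clec-135 peak.

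**Figure D5:**
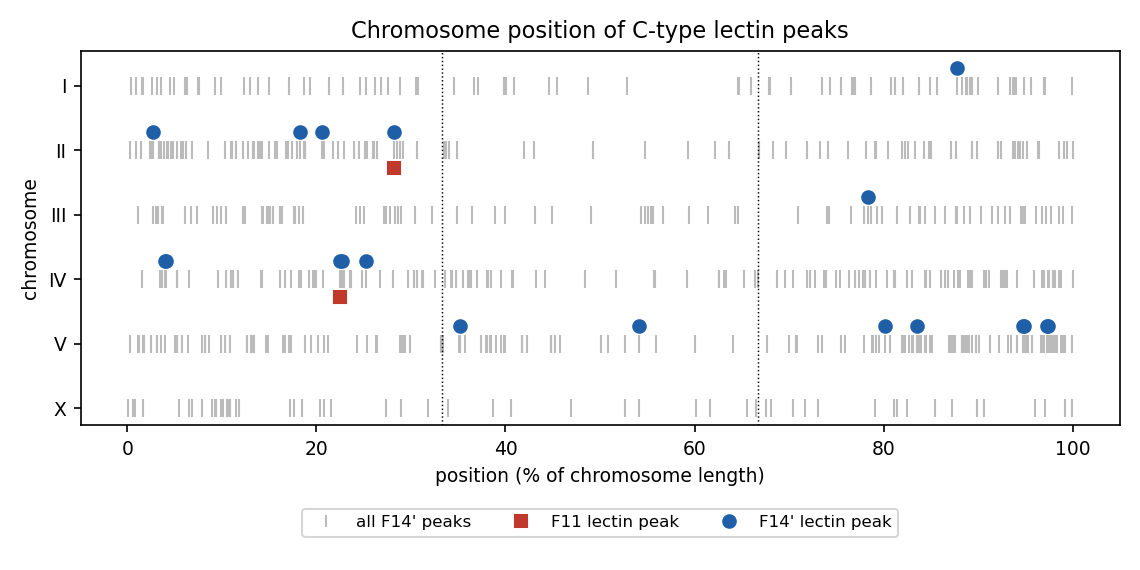
The plot shows the position of peaks as a percentage of chromosome length on each chromosome, with all F14' peaks as grey ticks, F14' lectin peaks as blue circles above and F11 lectin peaks as red squares below, and dotted lines around the middle 33.3%. Of the 19 F14' lectin peaks 17 lie outside the dotted lines, and chromosome X has none.

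C-type lectin genes often stand in runs of neighbours. Runs were defined as lectin genes at most 5 places apart in gene order. Of the 264 genes 82 stood alone, and 10 of the 17 listed genes were among these, clec-135, clec-175, clec-163 and clec-261 included. Runs of at least 5 lectin genes held 80 of the 264 genes and 3 listed ones. With 5 neighbours counted on each side, 7 of the 17 listed genes had another lectin gene nearby (41.2%, 18.4 to 67.1%), against 175 of the other 247 (70.9%, 64.8 to 76.4%). A chemoreceptor gene was nearby at 9 of 17 (52.9%, 27.8 to 77.0%) and at 89 of 247 (36.0%, 30.0 to 42.4%). The intervals overlap in each case, and the sources used here do not say how reads that match several near-identical genes were placed.

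The 3 listed genes in a long run share it. The run of 14 lectin genes on chromosome IV from clec-67 to clec-78 held clec-70, listed in F11, and clec-174 and clec-79, listed in F14'. Their peaks lay close together, with 8736 bp between those of clec-70 and clec-174 and 31867 bp between those of clec-174 and clec-79. The clec-174 peak (3940158 to 3941576) had a fold of 2.25 and the clec-79 peak (3973444 to 3975039) a fold of 2.61. The tables thus name different members of this run, and the F14' folds lay just below and above the table median of 2.30.

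Beyond lectins, a broad list of 216 other genes counted with innate immunity held, among others, lysozymes, antimicrobial peptides, saposin-like proteins, galectins and signalling genes. It also took in all genes whose symbols begin with cpr-, thn-, irg-, dod- or scl-, and single genes such as daf-16 and skn-1. In F14' 4 were listed (1.85%, 0.507 to 4.67%), against backgrounds of 1.77% over all reference genes and 2.52% over protein-coding genes. In F11 0 were listed (0 to 1.69%), against 0.190% and 0.325%. Each interval holds both backgrounds. The listed genes were tir-1, the TIR-domain adaptor at the head of the p38 pathway (fold 6.99, centred at -6150 bp), fipr-17 (2.83, at 2128 bp), zip-2, a bZIP transcription factor of the infection response (2.74, at 356 bp), and cnc-7, an antimicrobial peptide gene of the caenacin family (1.93, at -2984 bp). The zip-2 peak was the promoter-class peak among them.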

How the data were processed

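H3K4me3 ChIP-seq peak tables of F11 and F14' were used, with 1 library per group. Per the submitters' processing notes, Bowtie2 2.1.0, MACS 1.4.0rc2 and genome build ce10 were used. Peaks carry, per the file headers, a deposited tag count without normalization, a fold ratio over the caller's background, a score (-10 log10 p), a summit and a listed gene with its class and distance. The F11 table also has the authors' FDR in percent. The sources used here do not give library totals.

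Rows were collapsed to unique intervals, keeping the nearest listed start. Summits were counted from the first base of the peak as position 1. Chromosome lengths were the highest coordinate in both tables. A RefSeq gene table of assembly WBcel235 gave names, kinds and gene order only, and 98 of 103 F11 rows and 1000 of 1025 F14' rows matched it. Shares carry Clopper-Pearson intervals, tags exact Poisson intervals and ratios exact conditional intervals, and functions were tested on simulated data. All members are named, with genes listed at the same peak and the listed genes of the other immunity list. Members and lists were chosen with earlier results of these data known, and the runs, the length range and the inside-gene shares after seeing the values. Alternatives were stricter scores, a fold limit, distance limits, the nearest start and other overlap rules. The tools were scipy 1.17.1, pandas 2.3.3, numpy 2.4.6 and matplotlib 3.10.9 in Python 3.11.15.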

Additional observations from a re-analysis of the deposited data

How the results depend on the processing

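No paired analysis was possible because each group has 1 library. Of the alternatives tried, 16 stayed within 1.5 times of the count or within its interval and 13 moved. Among those that stayed, the promoter share with a centre within 2 kb was fixed in advance, since the class uses that limit. The nearest-start setting drew only on starts named in either table. The count of 16 is therefore not a measure of stability. The 2 F11 lectin peaks became 1 at a score of at least 100, at 50, at a fold of at least 3 and within 2 kb of the start, each time clec-135. The 19 F14' peaks became 8 at a score of at least 100, 12 at 50 and 6 at a fold of at least 3, where the 639 peaks of the table became 239, 393 and 174. Such limits leave fewer peaks by construction. At a score of at least 100 the share of family genes listed in F14' fell to 3.03% (1.32 to 5.88%), against 0.690% of all reference genes, the median of tags per kb rose to 478 (523 over all such peaks) and the median fold to 3.90 (4.08 over all). Within 1 kb of the start lay 47.4% of lectin peaks, against 36.5% of all F14' peaks. Of the 9 promoter-class lectin peaks within 1 kb, 100% were centred downstream (66.4 to 100%), against 53.2% of all such peaks and 60.9% for genes of like length, and at a score of at least 100 the share was 71.4% (29 to 96.3%), against 44.5%. The downstream shares under these limits and by summit, and the share over protein-coding genes, were chosen after seeing the data. At clec-135 the ratio of F14' to F11 was 1.69 for tags not divided by width. Depth could be judged only inside peaks.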
